A study of Mus musculus with 12 samples.

Results

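The samples described here are 6 RNA-seq libraries of uninfected MC38 tumours, 3 grown in TLR4 knockout C57BL/6 hosts and 3 in WT (wild-type) C57BL/6 hosts, all taken 1 day after an intravenous injection of PBS (phosphate-buffered saline). They were chosen by 2 labels alone, genotype and treatment, and are 6 of the 12 libraries of the series. The other 6 came from hosts of the same 2 genotypes that received Salmonella, and serve here to estimate the spread between libraries and to compare the host difference with and without bacteria. The comparison asks what an MC38 tumour holds before infection and whether loss of TLR4 in the host alters it.

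MC38 is a transplantable mouse colon carcinoma line of C57BL/6 origin. The tumour is therefore a mixture of implanted cancer cells with host blood vessels, fibroblasts and leukocytes. The labels put the knockout in the host and do not say that the MC38 cells lack Tlr4. No label states which part of the gene is deleted, the hosts' age, the number of tumour cells or the days of growth. The labels call the material tumour tissue but give colon cancer cells as its cell type.

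TLR4 is the receptor through which myeloid, endothelial and some epithelial cells sense lipopolysaccharide of Gram-negative bacteria. Lipopolysaccharide is handed to it by LBP and CD14, it binds in a complex with MD-2, and the receptor signals through 2 adaptor pairs, TIRAP with MyD88 to NF-kB and TRAM with TRIF to type I interferon. TLR4 can also respond to some products of damaged tissue, so an uninfected tumour need not be free of ligand.

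A short promoter motif is shown early because it recurs in a list of interferon-gamma-induced genes, whose levels differed among these 6 tumours. Type I interferon-stimulated genes, treated further below, were not searched for it, and a link between motif and level was not tested. Interferons act on many genes through sites with the core GAAA, 2 bases, GAAA, which is bound by interferon regulatory factors and STAT complexes. Promoter windows (250 bases before to 50 bases after the transcription start, RefSeq, GRCm38.p6) were matched by symbol for 11 of 17 genes of a list of interferon-gamma-induced genes, and 10 of the 11 held this motif on either strand, against 3.99% of 27025 genes with a window. Below are stretches before the start of 4 of them, GTPases that attack vacuoles of intracellular microbes (Igtp, Irgm1, Gbp2) and a feedback inhibitor of cytokine signalling (Socs1), with the match in capitals.
Igtp, chr11:58199487-58199555, plus strand: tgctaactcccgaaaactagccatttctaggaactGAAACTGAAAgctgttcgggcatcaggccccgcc
Irgm1, chr11:48871421-48871485, minus strand: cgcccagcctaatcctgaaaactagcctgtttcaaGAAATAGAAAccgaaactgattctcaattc
Gbp2, chr3:142620569-142620648, plus strand: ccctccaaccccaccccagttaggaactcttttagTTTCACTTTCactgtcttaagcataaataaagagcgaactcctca
Socs1, chr16:10785575-10785654, minus strand: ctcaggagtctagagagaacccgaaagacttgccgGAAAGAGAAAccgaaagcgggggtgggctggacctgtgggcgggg
The match in capitals began 34 bases before the start in Igtp, 30 in Irgm1, 59 in Gbp2 (where it lies on the opposite strand and reads TTTC, 2 bases, TTTC) and 83 in Socs1. In Irgm1 and Socs1 the letters after the capitals complete a further match that overlaps the first and is not marked. A match is a description of letters, and binding was not measured.

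Of the 25 most abundant genes, 17 matched a window, and 3 of these (B2m, Spp1 and Rack1) held the same motif. B2m, the light chain of MHC class I and the second most abundant RNA of these tumours, is shown with its match, and Vim, the intermediate filament gene of mesenchymal cells, with a TATA box.
B2m, chr2:122147513-122147592, plus strand: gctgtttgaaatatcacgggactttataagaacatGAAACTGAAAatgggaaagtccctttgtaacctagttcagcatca
Vim, chr2:13574244-13574310, plus strand: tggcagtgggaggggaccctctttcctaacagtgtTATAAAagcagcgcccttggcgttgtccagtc
TATAAA on the gene's own strand was found in 8 of the 17 abundant genes, against 9.77% of all genes with a window and 5.74% of those tested here. CCAAT on either strand was found in 9 of 17 against 41.1% of all, and CTTTC on the gene's own strand within 20 bases of the start in 3 of 17 against 6.44%. A match of the interferon motif can contain CTTTC on the opposite strand.

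The 6 libraries held 33107171 to 38424398 fragments on 18609 listed genes, so that 1 fragment in a 1 kb gene was worth 0.026 to 0.0302 FPKM (fragment numbers corrected for the length of a gene and for the size of its library). The depth limits counting error to a few percent for a gene of 10 FPKM, and genes under 0.1 FPKM rest on a few fragments. Knockout F-1 had the fewest fragments. Fragments of 4 Y-linked genes numbered 0 in both F-1 libraries and 266 to 753 in the 4 M libraries, so the title letter marked tumours from different hosts. The labels do not state that M-1 and M-2 of a genotype were separate animals, and p-values reflect only how far these libraries differ, in part perhaps for technical reasons. Of the 12164 tested genes (at least 0.5 FPKM in at least 3 of the 12 libraries), within-group SDs were of similar size in both hosts, with medians of 0.10 on the log2 scale in wild-type and 0.13 in knockout hosts.

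Tlr4 RNA was present in every library, also in knockout hosts. It was measured at 2.58, 2.48 and 2.53 FPKM in wild-type tumours, given here and below in the order F-1, M-1, M-2, and at 2.14, 3.15 and 1.59 FPKM in knockout tumours. The knockout libraries lay on both sides of the tight wild-type values, with knockout M-1 the highest and knockout M-2 the lowest of the 6. Each library held 488 to 1019 Tlr4 fragments. The difference, knockout minus wild type on the log2(FPKM + 0.5) scale, was -0.15 with SE 0.21 and a 95% interval of -0.60 to 0.30, and did not pass the test (limma, adjusted p = 1, unadjusted p = 0.476). Without knockout M-1 it was -0.36, and without knockout M-2 0.03. RNA of the tumour cells and RNA from an allele whose deleted part is not stated cannot be told apart in total Tlr4, so it does not check the genotype label.

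The genes that serve the receptor were also at similar levels in both hosts. All 20 members of the list of receptor complex and adaptor genes were tested, 0 of 20 passed, and the median difference was -0.01 (-0.12 to 0.08 with 1 PBS library left out), against 0.01 over all 12164 tested genes. Their summed FPKM overlapped between the hosts, at 174 to 189 in wild-type and 163 to 209 in knockout libraries. Ly96, which encodes the MD-2 subunit that binds lipopolysaccharide, was at 4.92, 4.82 and 6.66 FPKM in wild-type and 5.96, 7.47 and 5.23 in knockout libraries. Cd14, the co-receptor, was at 9.88, 14 and 9.89 FPKM and at 8.25, 15.7 and 10.7 FPKM, so that the M-1 tumour was the highest in each host. Among the adaptors, Myd88 was the most abundant, at 33.3, 25.6 and 27.7 FPKM in wild-type and 32.9, 29.9 and 34.8 in knockout hosts, and had the largest positive difference of the list, 0.18, with overlapping groups.

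Ticam2, which encodes the adaptor TRAM, was low, at 0.68, 1.26 and 0.97 FPKM in wild-type and 0.928, 1.48 and 0.383 in knockout libraries. The only member whose groups did not overlap (1 of 20, 5%, against 7.9% of the 12164 tested genes) was Tab1, a subunit of the TAK1 kinase complex, at 9.29, 9.84 and 9.08 against 8.61, 8.84 and 8.25 FPKM, a difference of -0.12. The complex genes found mainly on leukocytes, Cd180 and Ly86, were lowest in knockout M-2 and highest in knockout M-1, as was Tlr4 itself.

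**Figure D1:**
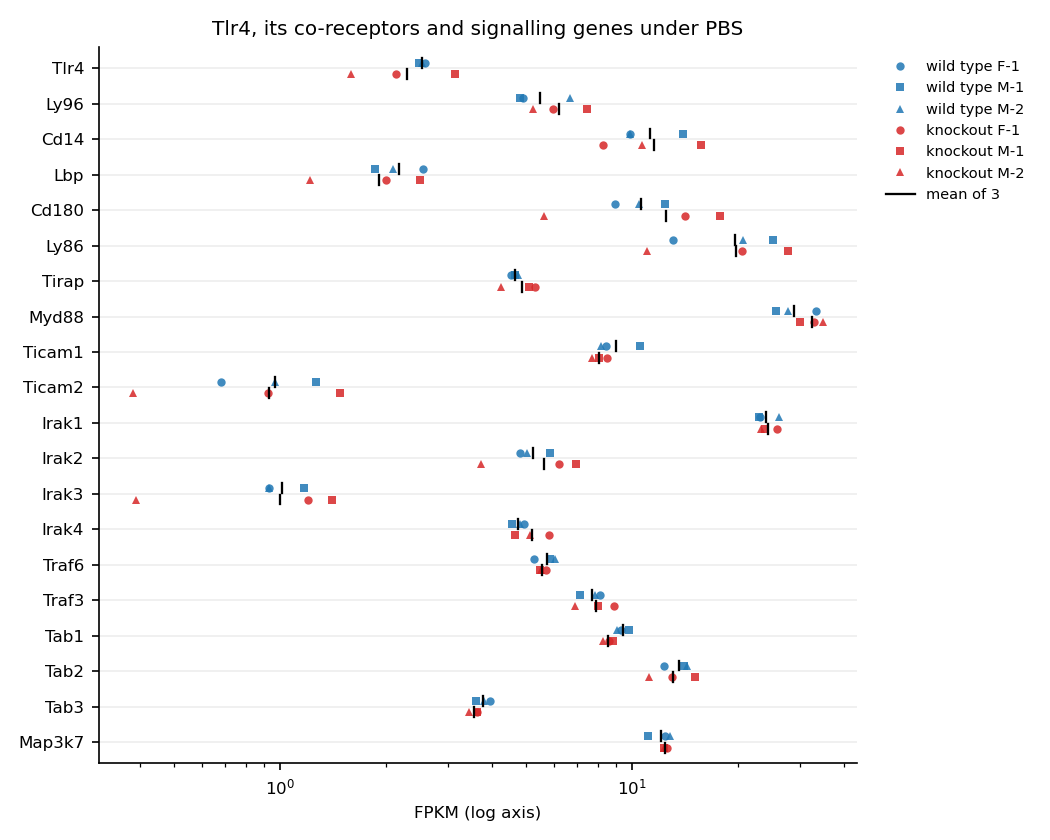
FPKM on a log axis of the 20 receptor complex and adaptor genes in the 3 wild-type (blue) and 3 knockout (red) PBS libraries, with the mean of 3 as a black bar. Tlr4 ranged from 1.59 to 3.15 FPKM, and its knockout values lie on both sides of the wild-type ones.

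The most abundant RNAs of the uninfected tumour were mainly those of ribosomal proteins, with single genes of antigen presentation, iron storage and the cytoskeleton among them. The 25 most abundant genes made up 13.1% of the summed FPKM (12.6% to 13.7% over the 6 libraries), and 13 of them encode ribosomal proteins. Over 90 symbols of cytosolic ribosomal proteins the share was 20.5% ± 0.598 (SD, n = 3) in wild-type and 19.5% ± 1.26 (SD, n = 3) in knockout hosts. Mean FPKM over the 6 libraries reached 1000 in 60 genes, 100 in 702, 10 in 5954 and 1 in 10893.

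Eef1a1, the elongation factor that brings aminoacyl-tRNA to the ribosome, was the most abundant gene, at 3858, 3954 and 3895 FPKM in wild-type and 3685, 3561 and 4216 FPKM in knockout libraries. B2m followed at 3054, 3806 and 3270 FPKM in wild-type and 3408, 3778 and 2889 FPKM in knockout libraries. The groups overlapped for both genes, and the differences were -0.03 for Eef1a1 and -0.01 for B2m. The class I heavy chains H2-D1 and H2-K1 were also among the 25, at 1934 to 2592 and 1402 to 2026 FPKM, and each was lowest in knockout M-2 and highest in knockout M-1. The H2 genes are near-identical to each other in part, and the authors' counting could split their fragments.

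Fth1 and Ftl1, the subunits of the iron store ferritin, were highest in wild-type M-1, at 3446 and 2552 FPKM, and lay between 2557 and 3179 and between 1776 and 2043 FPKM in the other 5 libraries. Spp1, which encodes osteopontin, a matrix protein made by tumour cells and macrophages, was at 2842, 2872 and 2507 FPKM in wild-type and 2499, 2925 and 2378 FPKM in knockout hosts. Lgals1, the galectin-1 gene, was at 2358 to 2506 FPKM in wild-type and 2517 to 2878 FPKM in knockout hosts as deposited; after scaling, the groups overlapped and the difference was 0.14. Vim was at 1909, 2249 and 2076 FPKM and at 1948, 2038 and 2018 FPKM.

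Over the 25 genes, differences between hosts ran from -0.19 (Ftl1) to 0.14 (Lgals1), 0 of 25 passed, and all 25 had a 95% interval within 2-fold either way. Both hosts shared 24 of their 25 most abundant genes and 96 of their 100. The 25th gene, at 1737 FPKM, was close to the next one, at 1726 FPKM.

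**Figure D2:**
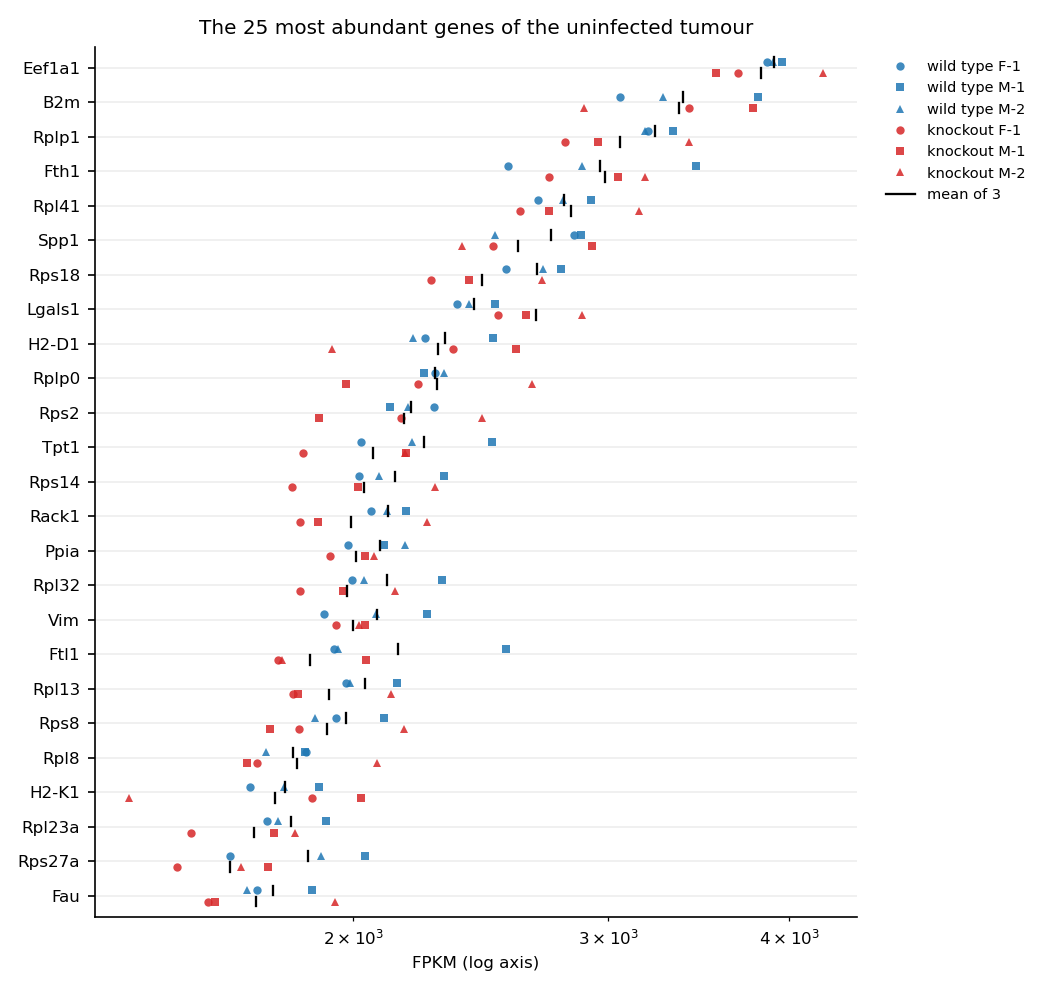
FPKM on a log axis of the 25 genes with the highest mean over the 6 PBS libraries, wild type in blue and knockout in red, with the mean of 3 as a black bar. Wild-type and knockout means lie close together for each gene, from Eef1a1 at the top (3561 to 4216 FPKM) downwards.

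The cell type given in the labels, colon cancer cells, was checked against epithelial genes. They were at or near 0: the 9 of 10 markers that matched a symbol summed to 0.645 to 1.22 FPKM per library. Epcam, the epithelial adhesion molecule, was at 0.143, 0.0128 and 0.0392 FPKM in wild-type and 0.044, 0.114 and 0 in knockout libraries. Cdh1, which encodes E-cadherin, was at 0.271 to 0.45 FPKM, Krt8 at 0.161 to 0.418 FPKM, and Cldn3 was listed at 0 in all 6. Epithelial markers therefore do not identify the cancer cells in these libraries, while Vim and Lgals1, genes of mesenchymal cells, were at 1909 to 2878 FPKM.

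Host cells were seen through 17 further marker lists. In bulk RNA, fewer cells of a type and less RNA per cell cannot be told apart, and cancer cells may express some markers. The lists also differ in their number of genes and in how abundant these are, so their sums do not rank cell types. By mean summed FPKM the macrophage list was the highest, and in 5 of the 6 libraries (in wild-type F-1 the fibroblast list was higher), at 1013, 1879 and 1529 in wild-type and 1555, 2181 and 1031 in knockout libraries, so that the hosts covered nearly the same range. Its most abundant members were Lyz2, the lysozyme gene of myeloid cells (216 to 590 FPKM), Apoe, the lipid carrier (160 to 399 FPKM), and the complement genes C1qa, C1qb and C1qc (140 to 364 FPKM). Adgre1, which encodes the macrophage antigen F4/80, was at 23.4, 30.8 and 28.7 FPKM in wild-type and 32.2, 30.2 and 15.5 FPKM in knockout hosts. Vsig4, a receptor of some resident macrophages, was listed at 0 in 4 of the 6 libraries.

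Fibroblast markers summed to 1006 to 1241 in wild-type and 867 to 1229 in knockout hosts, most of it from Col3a1, a fibrillar collagen (548 to 788 FPKM). Monocyte markers summed to 665 to 793 and 663 to 838, most of it from fibronectin (Fn1, 560 to 717 FPKM), which fibroblasts and tumour cells also make; Ly6c2, a surface protein of inflammatory monocytes, was at 52.4 to 87.4 FPKM. Dendritic cell markers were led by Fscn1 (188 to 242 FPKM), an actin-bundling gene that tumour cells also use, and 5 of the 10 (Flt3, Xcr1, Clec9a, Cd209a and Siglech) were too low to be tested. Endothelial markers summed to 54 to 77.1 in wild-type and 59.3 to 73.9 in knockout hosts.

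Lymphoid and granulocyte markers were low. T cell markers summed to 11.3, 22.7 and 13 FPKM in wild-type and 16.8, 25.2 and 6.66 FPKM in knockout libraries, and NK cell and cytotoxic markers to 36.1, 65.2 and 44.6 and to 59.4, 111 and 28.3 FPKM. Neutrophil markers summed to 29.1, 17.5 and 18.9 and to 20, 16.2 and 16.1 FPKM; Ly6g, a defining marker of mature neutrophils, was listed at 0 in 5 of the 6 libraries and Mmp9, which macrophages also make, was the highest member. S100a9, a calprotectin subunit abundant in neutrophils, was at 7.7, 1.46 and 1.75 FPKM in wild-type and 0.634, 0.993 and 0.314 FPKM in knockout libraries. Its groups did not overlap, but wild-type F-1 stood far above the rest, and without it the difference went from -1.55 to -0.90. Ltf, the lactoferrin gene, was the other neutrophil marker without overlap, in the opposite direction, but on at most 4 fragments per library. The partner subunit S100a8 overlapped, at 8.73, 3.51 and 3.64 against 2.08, 4.32 and 2.66 FPKM.

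Markers of tissue around the tumour were low and uneven. Skeletal muscle markers summed to 3.9 to 16.3 FPKM, with the highest value in knockout F-1, adipocyte markers to 4.92 to 19.8 FPKM, and keratinocyte markers to 0.586 to 1.32 FPKM. Erythroid markers, largely haemoglobin RNA, summed to 65.6, 28.8 and 62.8 FPKM in wild-type and 10.9, 10.4 and 37.1 FPKM in knockout libraries. In 17 of the 18 lists the summed values of both hosts overlapped. The exception was the pericyte and smooth muscle list. It summed to 47.5, 46.1 and 50.2 FPKM in wild-type and 43.1, 40.8 and 44.3 FPKM in knockout libraries. Of its 9 tested members 0 passed and 7 had a difference below 0, with a median of -0.17. Members ran from Notch3 (-0.38) to Des (0.39). Only these 2 members (22.2%, against 7.9% of all tested genes) did not overlap between hosts, in opposite directions.

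**Figure D3:**
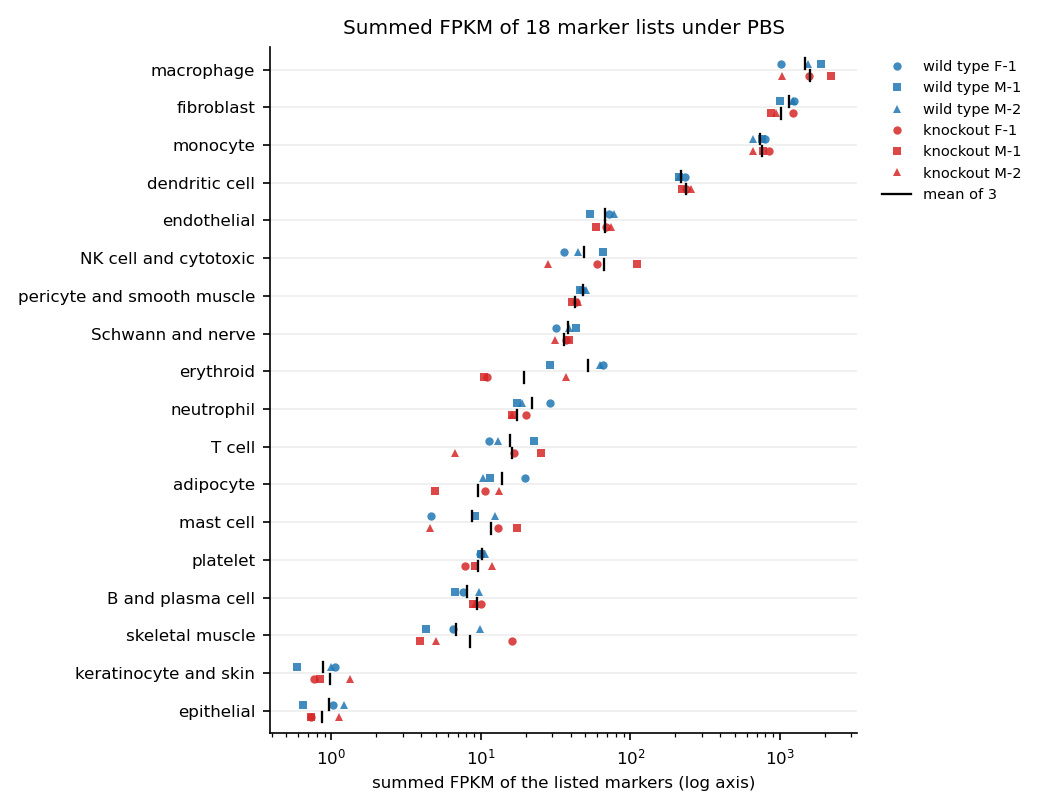
Summed FPKM on a log axis of 18 cell type marker lists in the 6 PBS libraries, wild type in blue and knockout in red, with the mean of 3 as a black bar. Macrophage and fibroblast lists are near 1000 FPKM, epithelial and keratinocyte lists near 1, and only the pericyte and smooth muscle sums of the 2 hosts do not overlap.

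Across all genes, no host difference passed the test. Of 12164 genes, 0 (0%) had an adjusted p under 0.05 (limma, Benjamini-Hochberg), and the smallest adjusted p was 1. At an unadjusted p under 0.05 there were 176 genes (1.45%), 65 higher and 111 lower in knockout hosts. The values of the 3 knockout and 3 wild-type libraries did not overlap in 961 genes (7.9%), 476 higher (3.91%) and 485 lower (3.99%) in knockout hosts.

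The precision was enough to bound most genes. For 11562 genes (95.1%) the 95% interval of the difference lay within 2-fold either way, and for 9803 (80.6%) within 1.5-fold, with a median half-width of 0.29 on the log2 scale. For genes near 0 FPKM the added 0.5 narrows the interval, which then does not bound the fold change of the RNA. Krt20, with 1 to 22 fragments per PBS library, had an interval of -0.82 to 0.35. Its difference was -1.42 with voom on the recovered fragments. The median absolute difference was 0.07, and 95% of genes were under 0.28. These intervals use the spread of all 12 libraries, of which the wild-type Salmonella group was the most variable (median SD 0.20). A fit on the 6 PBS libraries also called 0 genes, with 336 at an unadjusted p under 0.05.

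**Figure D4:**
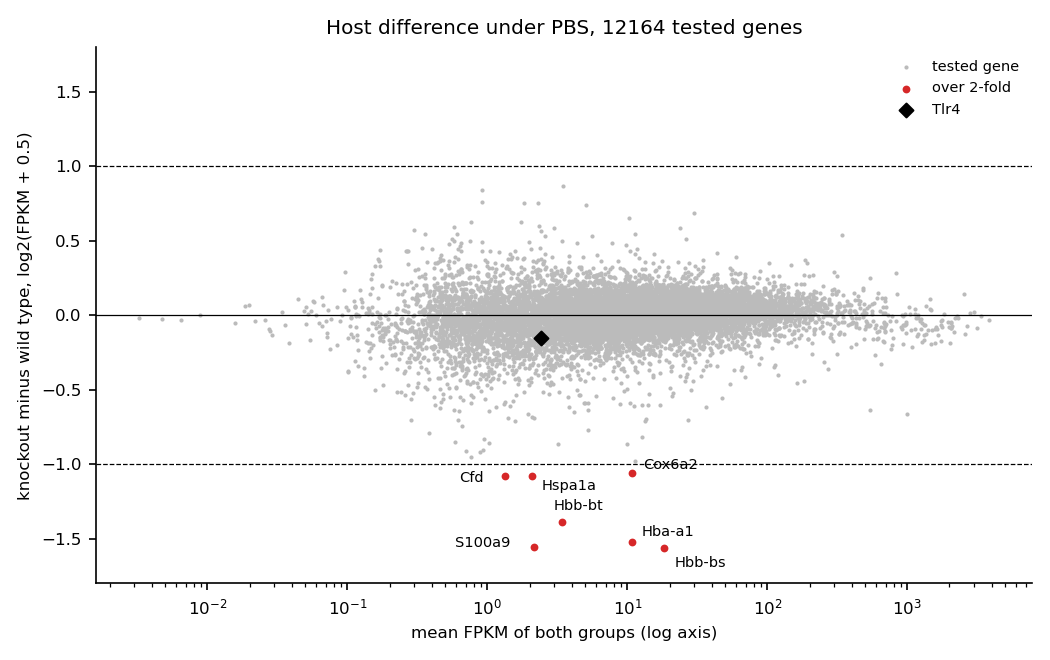
Difference between hosts on the log2(FPKM + 0.5) scale against mean FPKM (log axis), 1 point per tested gene, with dashed lines at 2-fold. The 7 genes over 2-fold (red) are all lower in knockout hosts, and Tlr4 (black diamond) lies at -0.15.

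Point estimates passed 2-fold in 7 genes, which are named here after their values were seen, and all 7 were lower in knockout hosts. The set depends on the setting: Hbb-bs and Hba-a1 stayed over 2-fold in each alternative run, while the other 5 did not. Hbb-bs, a beta-globin gene, was at 28.4, 15.6 and 36.7 FPKM in wild-type and 4.77, 6.39 and 17.6 FPKM in knockout libraries, a difference of -1.56 with SE 0.57 (limma, adjusted p = 1). Hba-a1 (alpha-globin) was at 27.7, 7.85 and 12.7 and at 3.03, 2.93 and 10.1 FPKM (-1.52), and Hbb-bt at 4.75, 3.27 and 6.67 and at 1.63, 0.372 and 3.62 FPKM (-1.39). For each of the 3 globin genes knockout M-2 lay above the lowest wild-type value. Globin genes are near-identical copies, which the authors' counting could split. The erythroid list had a median of -1.39 over 5 tested members, -1.92 without knockout M-2 and -0.81 without knockout M-1.

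Cox6a2, a muscle form of a cytochrome c oxidase subunit, was at 11.2, 14.6 and 18.3 FPKM in wild-type and 6.05, 4.38 and 10.7 FPKM in knockout libraries, without overlap. Hspa1a, the inducible heat shock protein 70 gene, was at 1.73, 5.14 and 2.36 and at 0.885, 1.24 and 1.05 FPKM, also without overlap. Cfd, which encodes the adipocyte protein adipsin, was at 4.61, 1.61 and 0.205 and at 1.15, 0.452 and 0 FPKM, so that the wild-type libraries alone spanned most of the range. Without wild-type F-1 the Cfd difference went from -1.08 to -0.39, and with library weights to -0.26. That of Hspa1a was -0.69 without wild-type M-1, that of Cox6a2 -0.79 without knockout M-1, and that of Hbb-bt -0.81 without the same library. The last gene over 2-fold was S100a9. In all, 69 genes had a difference over 1.5-fold.

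The 10 genes with the smallest unadjusted p had p-values of 0.000174 to 0.00654 and adjusted p = 1 (limma), and in each the 3 knockout libraries lay on 1 side of the 3 wild-type libraries. Rsph3a, which encodes a radial spoke protein of cilia, was at 8.37, 8.93 and 9.85 FPKM in wild-type and 13.9, 12 and 14.4 FPKM in knockout libraries, a difference of 0.55. Its near-identical copy Rsph3b overlapped (5.89 to 6.84 and 6.35 to 7.74 FPKM), so how fragments were split between the copies is uncertain. Tmem40, a membrane protein gene, was at 1.34, 1.45 and 0.845 and at 1.7, 2.59 and 2.94 FPKM (0.75), and Arl16, a small GTPase, was higher by 0.40.

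Lower in knockout libraries were 2 Krueppel-like transcription factor genes: Klf9, a target of glucocorticoid and thyroid hormone receptors, at 10.5, 14.9 and 12.5 against 6.81, 9.56 and 8.14 FPKM (-0.59), and Klf11, at 4.75, 5.36 and 5.41 against 3.38, 3.33 and 3.75 FPKM (-0.51). The matrix genes Ccn3 (1.14, 0.865 and 1.49 against 0.393, 0.524 and 0.15 FPKM) and Aspn (13.3, 16.5 and 19.4 against 11.9, 8.34 and 7.15 FPKM), which encode a secreted CCN protein and asporin, differed by -0.95 and -0.82. The Ccn3 value depends on the pseudocount, being -1.53 with 0.1 and -1.83 with voom on the recovered fragments. The other 3 were Zfp931 (-0.51), Rwdd3 (-0.48) and Stam (-0.31), an endosomal sorting gene. Genes with the smallest p were picked by their values, so these values are descriptions.

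Across all 38 gene lists, 454 distinct genes were tested and 0 passed. In 10 the knockout libraries all lay above and in 19 all below the wild-type ones, together 6.39% against the 7.9% of all tested genes.

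Lists downstream of TLR4 held no gene that passed. Of 16 genes of NF-kB subunits and inhibitors, 0 passed, with a median of 0.05. In 2 of them (12.5%, against 7.9% of all tested genes), Nfkb1 and Bcl3, the knockout libraries all lay above the wild-type ones. Nfkbie, which encodes an inhibitor of NF-kB, was at 9.48, 8.88 and 10.9 FPKM in wild-type and 16, 14.9 and 9.96 FPKM in knockout hosts (0.44; limma, unadjusted p = 0.0235, adjusted p = 1), with overlap through knockout M-2. Nfkbia, the main feedback inhibitor, was at 59.6 to 68.4 and 62.3 to 68.7 FPKM. Of 17 tested cytokine genes 0 passed (median -0.01, and -0.15 without knockout M-1). The largest difference was that of Il12b, a subunit of IL-12, at -0.59 with overlap. Il6 alone (1 of 17, 5.88%) separated the hosts, lower in knockout libraries.

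Of 20 chemokine genes 0 passed, and 2 (10%, against 7.9% of all tested genes) separated the hosts: Cxcl1, a neutrophil attractant, higher in knockout libraries (3.75, 3.54 and 5.05 against 5.31, 5.53 and 5.63 FPKM), and Ccl22, a ligand of CCR4, lower (1.08, 1.31 and 1.22 against 1.05, 0.862 and 0.485 FPKM). The largest difference was that of Cxcl2, another such chemokine gene (-0.90), with overlap at 2.47, 0.586 and 1.17 against 0.502, 0.769 and 0.127 FPKM. Cxcl10, which attracts activated T and NK cells, was the most abundant, at 395, 202 and 246 FPKM in wild-type and 444, 458 and 296 FPKM in knockout libraries, and Ccl2, the monocyte attractant, was at 185, 149 and 166 and at 222, 277 and 154 FPKM. The chemokine median was -0.04, and 0.36 without knockout M-2.

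All 18 type I interferon-stimulated genes tested had a difference above 0, from 0.07 (Oas2) to 0.32 (Oas1a), with a median of 0.19. Over all 12164 tested genes, 6330 were above 0. Genes of 1 pathway vary together, so the 18 are not independent. Of the 18, 0 passed or separated the hosts, and the median was 0.03 without wild-type M-1. Isg15, a ubiquitin-like interferon product, was at 356, 180 and 280 FPKM and at 367, 272 and 328 FPKM.

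The list furthest from the background in its share of separated genes was that of hypoxia and glycolysis, the genes by which cells break down glucose and respond to low oxygen. Its 24 members were all tested, 0 passed, and all 24 had a difference below 0, from -0.45 (Slc2a1) to -0.01 (Pfkp), with a median of -0.15, while 48% of all tested genes were below 0. The hosts did not overlap in 10 of the 24 (41.7%, against 7.9% of all tested genes), and in these 10 the knockout libraries all lay below the wild-type ones. Genes of 1 pathway vary together, so the 24 are not independent.

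Slc2a1, the glucose transporter GLUT1, was at 168, 199 and 199 FPKM in wild-type and 131, 146 and 134 FPKM in knockout libraries, with no overlap (limma, unadjusted p = 0.035, adjusted p = 1). Hk2, which traps glucose in the cell, was at 37.1, 41.4 and 44.6 and at 33.2, 36 and 29.9 FPKM. Pgk1, a glycolytic kinase, was at 909, 1036 and 1018 and at 843, 896 and 841 FPKM, and Tpi1, triose phosphate isomerase, at 1159, 1210 and 1170 and at 1078, 1118 and 1115 FPKM. All 4 genes were lower in each knockout library than in any wild-type library, but by less than 1.5-fold. Vegfa, the angiogenic factor, was at 43.5, 46.2 and 56.9 and at 43.5, 40.3 and 31.9 FPKM, with wild-type F-1 and knockout F-1 nearly level.

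Some members that respond to low oxygen overlapped: Car9, a carbonic anhydrase, was at 55.8, 82.3 and 81.4 and at 65.1, 81.1 and 43.9 FPKM, and Ndrg1 at 155, 217 and 260 and at 130, 153 and 174 FPKM. The summed FPKM of the list was 7689, 8146 and 8014 in wild-type and 7122, 7196 and 7329 in knockout hosts, without overlap. The median stayed between -0.17 and -0.10 when any 1 PBS library was left out. Erythroid markers were also lower in knockout hosts on average, as given above, and their part in the values of this list was not tested.

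Cell cycle genes leaned the other way. Of 24 tested, 0 passed and 22 had a difference above 0 (median 0.10, 0.08 to 0.16 with 1 library left out). Over all 12164 tested genes, 6330 were above 0. The hosts did not overlap in 3 of the 24 (12.5%, against 7.9% of all tested genes), Ccna2, Aurkb and Tyms, all higher in knockout libraries. Members of this list are not independent either. Their summed FPKM was 1637, 1489 and 1578 in wild-type and 1675, 1654 and 1702 in knockout libraries, without overlap. Tyms, thymidylate synthase, was at 10.8, 9.06 and 10.3 and at 11.7, 11.4 and 12.1 FPKM, but Mki67, which encodes the proliferation antigen Ki-67, was at 32.9, 27.1 and 32 and at 30.4, 30.8 and 26.2 FPKM (-0.07). Genes of oxidative phosphorylation had a median of 0.02, and all 20 had an interval within 2-fold. Collagen chains had a median of -0.20 (-0.33 without wild-type M-1, -0.09 without wild-type M-2), with overlapping sums of 1787 to 2111 and 1531 to 2141 FPKM.

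Knockout M-2 stood apart from the other knockout tumours. Pairs of libraries correlated at 0.990 to 0.994 within wild type, 0.982 to 0.992 within knockout and 0.987 to 0.993 between hosts (Pearson's r across genes, which are not independent replicates). Between 70 and 149 genes (median 79) differed over 2-fold within the 3 pairs of wild-type libraries, 85 to 457 (median 216) within the 3 knockout pairs and 60 to 254 (median 103) in the 9 pairs between hosts. The larger knockout counts are those of the pairs with knockout M-2: the pair of knockout F-1 and M-1 differed in 85 genes, and the pair with the fewest such genes, 60, was wild-type M-2 and knockout F-1. The 2 most distant libraries of the 6 were knockout M-1 and knockout M-2, with 457 genes. On the first principal component, with 44.2% of the variance, they were at the 2 ends (19.7 and -23.8), and knockout F-1 (2.71) lay among the wild-type libraries (-9.05, 9.90 and 0.56). On the second, with 19.2%, knockout F-1 was the lowest of the 6 at -14.2, outside the wild-type libraries (-7.53, 13.3 and -0.38).

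Variation within the groups was examined gene by gene. The 10 genes with the largest within-group SD were Gbp2b, Gzmf, Saa3, Gzmg, Arg1, Gzmd, Ifng, Gzme, Cxcl14 and Ubd, and of the 100 most variable genes 73 were highest in knockout M-1 and 71 lowest in knockout M-2. Ifng, the cytokine of activated T and NK cells, was at 0.618, 1.77 and 1.51 FPKM in wild-type and 2.55, 7.25 and 0.249 FPKM in knockout libraries, a 29.1-fold range. Of the 10, 2 peaked elsewhere: Saa3, an acute-phase gene, and the chemokine gene Cxcl14 were highest in wild-type F-1. Gzmf, a granzyme of cytotoxic cells, was at 10.1, 17.6 and 4.98 and at 7.84, 50.7 and 4.05 FPKM. Arg1, the arginase of some macrophages, was at 10.9, 28.5 and 19.5 and at 13, 65.9 and 6.37 FPKM.

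The list of 17 interferon-gamma-induced genes, whose promoter motif is shown above, had the same 2 libraries at its ends. All 17 were highest in knockout M-1, and 16 of 17 were lowest in knockout M-2. These counts were not made over all tested genes, so no background share can be set beside them. Of the 18 type I interferon-stimulated genes, 2 were highest in knockout M-1 and 0 lowest in knockout M-2. Their summed FPKM was 912, 865 and 862 in wild-type and 1129, 1806 and 584 in knockout libraries, so that the wild-type tumours were alike and the knockout tumours spread to both sides. Gbp2 was at 180, 191 and 148 and at 207, 442 and 98.1 FPKM, and Igtp at 125, 120 and 122 and at 160, 272 and 83.9 FPKM. The host median of the list was 0.27, but -0.07 without knockout M-1 and 0.70 without knockout M-2, and 0 of 17 passed.

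MHC class II genes, used by antigen-presenting cells to show peptides to CD4 T cells, varied more within each host. They summed to 661, 1908 and 1378 FPKM in wild-type and 1507, 2881 and 481 FPKM in knockout libraries, a 5.99-fold range within the knockout group. H2-Ab1, a class II beta chain, was at 155, 447 and 317 and at 363, 697 and 115 FPKM, so that M-1 was the highest tumour in each host. The host median was 0.14, -0.29 without knockout M-1 and 0.76 without knockout M-2. By contrast, matrix protease genes summed to 1773 to 1999 and 1845 to 2051 FPKM, a 1.16-fold range over the 6 libraries.

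Measures of host cell content also differed between these 2 tumours. Ptprc, which encodes the leukocyte antigen CD45, was at 13.4, 18.1 and 17.6 FPKM in wild-type and 17.1, 24.4 and 8.04 FPKM in knockout libraries, and knockout M-2 also had the fewest Y-linked fragments of the 4 M libraries, 266 against 593, 747 and 753. T cell marker sums were 3.78 times and NK and cytotoxic marker sums 3.92 times as high in knockout M-1 as in knockout M-2, and macrophage sums 2.12 times. Endothelial sums (59.3 and 73.9 FPKM) and fibroblast sums (867 and 939 FPKM) differed less between these 2 tumours. The part of leukocyte content in the values of these lists was not tested.

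**Figure D5:**
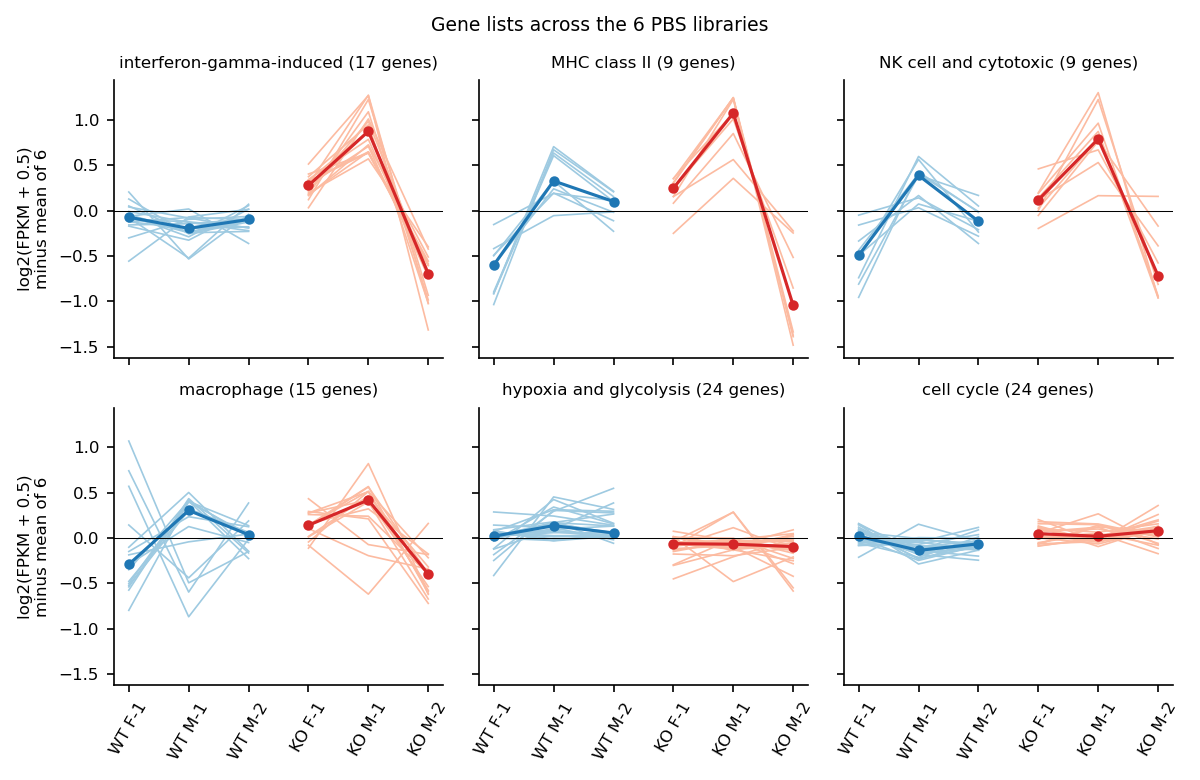
Members (pale lines) and their median (dots) of 6 gene lists in the 3 wild-type (blue) and 3 knockout (red) PBS libraries, as log2(FPKM + 0.5) minus the gene's mean over the 6; lines join 1 gene's values, and libraries have no order. Interferon-gamma-induced, MHC class II and cytotoxic lists peak in knockout M-1 and are lowest in knockout M-2, while hypoxia and cell cycle lists stay within a narrow range.

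Genes near Tlr4 were examined because a knockout allele is often carried with flanking DNA of another strain. Tlr4 lies on chr4:66827584-66930284 on the plus strand (GENCODE M21, GRCm38; the sources used here do not name the authors' build). Of the 20 nearest tested genes by RefSeq order (GRCm38.p6), 10 on each side from Rgs3 to Zdhhc21, 0 passed, and 0 had an unadjusted p under 0.05 (limma). Their differences ran from -0.21 (Megf9) to 0.15 (Tnfsf8), with a median of 0.01. The hosts did not overlap in 2 of the 20 (10%, against 7.9% of all tested genes), both lower in knockout libraries. They were Megf9 (1.88, 1.73 and 2.03 against 1.7, 1.6 and 1.38 FPKM) and Nfib (4.14, 3.99 and 4.25 against 3.9, 3.91 and 3.72 FPKM).

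With Salmonella the same host contrast was larger. There 1063 of 12164 genes (8.74%) passed (limma), 355 higher and 708 lower in knockout hosts. The median absolute difference was 0.20 under Salmonella and 0.07 under PBS, and 623 and 7 genes passed 2-fold. Over the 1063 genes the median absolute difference was 0.81 under Salmonella, as their choice requires, and 0.09 under PBS, and 60 of them separated the hosts under PBS in the same direction and 25 in the opposite one. Together these are 8% of the 1063, against the 7.9% of all tested genes that separated the hosts under PBS.

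The difference between both host contrasts was itself tested, and 3 genes (0.0247%) passed: Fabp7, Pf4 and Tmem40. Pf4, the platelet chemokine, was at 9.09, 9.44 and 9.85 FPKM in wild-type and 7.14, 8.5 and 11 FPKM in knockout hosts under PBS, overlapping. For Tmem40 the host difference was positive under PBS and negative under Salmonella. Fabp7 passed the filter through the wild-type Salmonella libraries only, had 0 to 6 fragments in each PBS library, and did not pass in 5 of the 6 fits with 1 PBS library left out. That count depended on the fit: 1746 genes had an unadjusted p under 0.05, 3085 passed with library weights and 0 with voom on the recovered fragments. A host effect that passed under Salmonella and not under PBS is not thereby shown to differ between them.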

How the data were processed

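RNA-seq libraries of MC38 tumours from TLR4 knockout and WT hosts, 3 per host and treatment, were grouped by their genotype and treatment labels. TRIzol was used for RNA and the VAHTS Universal V6 kit for libraries, per the labels' protocols. The submitters' processing notes name fastp, HISAT2 and HTSeq without versions. Not given in the sources used here were strand setting, annotation and genome build.

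Per library, the authors deposited 1 table of values, whose unit, FPKM, was read from the values. For 18222 genes above 0 in any library (100.0%), whole fragments could be recovered in every library (tolerance 0.01 fragments), and 387 further genes were at 0 throughout. The 6 PBS libraries held 33107171 to 38424398 fragments, and intervals of depth cover counting error only. No 2 libraries held identical values.

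FPKM were divided by a scaling factor (trimmed mean of log ratios, leaving out 30% by ratio and 5% by level at either end; 1.034 to 1.049 in PBS libraries), and log2(FPKM + 0.5) was tested with limma 3.58.1 (R 4.3.3; trend, robust, two-sided, Benjamini-Hochberg over 12164 genes, threshold 0.05). The fit used all 12 libraries with 1 mean per group. This scale understates fold changes of low genes. Overlap between groups was judged on the scaled values. Tables were handled with Python 3.11.15 and pandas 2.3.3.

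Named genes are Tlr4, the 10 smallest p, the 25 most abundant, the 2 most abundant and the smallest p of each of 38 lists, the 10 with the largest within-group SD, and the neighbours of Tlr4. Further members of lists, the genes over 2-fold, the interaction genes, Ptprc, S100a2, Rsph3b and the Y-linked genes were added after their values were seen. The libraries and lists were chosen with earlier results of these data known. Alternatives were scaling, pseudocount, filter, a replicate block, the title letter, library weights, voom on recovered fragments, the PBS libraries alone and each PBS library left out. Promoter windows came from RefSeq (GRCm38.p6).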

Additional observations from a re-analysis of the deposited data

Results flagged for a closer look

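For 3 genes the host contrast differed between PBS and Salmonella at adjusted p under 0.05 by the test of the difference itself (limma, adjusted over all tested genes). For Pf4 the host difference under Salmonella minus that under PBS was -2.15 on the log2 scale (SE 0.23, adjusted p = 0.00848). Under PBS the 6 libraries overlapped between hosts at 7.14 to 11 FPKM, and under Salmonella the wild-type libraries were at 122, 131 and 142 FPKM and the knockout libraries at 38.7, 28.9 and 26.2 FPKM. For Tmem40 it was -2.33 (SE 0.26, adjusted p = 0.00848), with wild-type libraries at 3.97, 3.76 and 4.9 FPKM and knockout libraries at 1.01, 1.34 and 1.39 FPKM under Salmonella, and the opposite order under PBS. For Fabp7, a fatty acid binding protein gene, it was -2.84 (SE 0.37, adjusted p = 0.0275). Fabp7 rested on 0 to 6 fragments in each PBS library, so its PBS difference of 0.09 was not measurable at this depth and the test of the difference rests on the Salmonella libraries. It did not pass with a pseudocount of 0.1, without the filter on low values or in 5 of the 6 fits with 1 PBS library left out. Under Salmonella it was at 5.72, 3.7 and 3.12 FPKM in wild-type and 0.316, 0.102 and 0.355 FPKM in knockout libraries.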

How the results depend on the processing

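The count of 0 genes for the host contrast under PBS was the same in every alternative run except without the filter on low values, where 1 gene, S100a2, passed; it had at most 1 fragment in any PBS library (0.0848, 0.0839 and 0.0855 FPKM in wild-type and 0 in knockout libraries). Leaving out each PBS library in turn gave 0 genes each time. Genes at an unadjusted p under 0.05 ranged from 109 (without wild-type M-1) to 831 (library weights). With the replicate block, 0 genes passed for the host contrast and 4 for the difference between both host contrasts. Deviations of equally labelled libraries correlated at 0.06 (F-1), 0.40 (M-1) and -0.03 (M-2), and those of unequally labelled ones at -0.38 to 0.29. Only the M-1 libraries were thus more alike than unequally labelled libraries. The 3 genes of that second test became 6 with FPKM as deposited, 3085 with library weights and 0 with voom, and 2 to 3 with 1 PBS library left out (Fabp7 was lost in 5 of these 6 fits, with pseudocount 0.1 and without the filter, while Pf4 and Tmem40 passed in all of these); the cause was not tested. Of 2665 values of 167 genes under alternatives 2648 moved by less than 1 SD, and of 576 list medians 560 did. Part of the gene count was fixed by the design. With 3 libraries per group, leaving out 1 cannot move a gene by 1 within-group SD, apart from small changes in scaling. Of the 17 gene values that moved further, 0 came from such fits. The replicate block and the title letter are balanced over the groups and could not move the differences either. As 0 genes were called, signs were not fixed: with 1 PBS library left out, the sign turned in 24 of 36 list medians and 79 of 167 genes. Depth limits genes under about 0.1 FPKM, and 3 tumours per host limit the rest.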
